A study of Mus musculus with 9 samples.

Results

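The Hox genes described here are 29 named genes of the 4 mouse Hox clusters, other than the 5′ Hoxa and 5′ Hoxd genes: 6 in HoxA (Hoxa2 to Hoxa7), 10 in HoxB, 9 in HoxC and 4 in HoxD (Hoxd1, Hoxd3, Hoxd4 and Hoxd8). They are defined by name alone, among 21938 protein-coding genes of the GENCODE M21 annotation on mm10. Histone H3 acetylated at lysine 27 (H3K27ac), a mark of active promoters and enhancers, was measured by MicroChIP-seq on single pairs of E10.5 mouse forelimb buds with 33 to 34 somites, on a strain background given in the labels as mixed. The 3 genotypes were WT, Shh-/- (titled Shh) and Shh-/-;Gli3-/- (titled ShhGli3), each with 2 H3K27ac samples and 1 input, the chromatin before immunoprecipitation. Each deletion was carried by every cell of the embryo, so all tissues of the limb bud lacked the gene. The Shh-/- limb buds lacked the SHH ligand and kept GLI3, and the Shh-/-;Gli3-/- limb buds lacked SHH and GLI3, the main GLI repressor of the limb.

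Hox genes encode homeodomain transcription factors that give the embryo positional identity. Within each cluster they lie in order, all transcribed in the same direction, from the 3′ genes (low paralog numbers, early and anterior expression) to the 5′ genes (high paralog numbers, late and posterior or distal expression). In the limb bud, the 5′ Hoxa and Hoxd genes are known for patterning along the proximal-distal axis and for acting upstream and downstream of SHH in the posterior mesenchyme, whereas the HoxB and HoxC clusters and the 3′ genes are better known for their roles along the trunk, hindbrain and flank.

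A single peak list per genotype, attached in the labels to the first H3K27ac sample of that genotype, was used. The lists hold no separate values for the 2 samples, so no test could be made from them, and every difference below is a difference between 3 lists. The lists held 25096 peaks in WT, 32085 in Shh-/- and 34641 in Shh-/-;Gli3-/-, covering 10.4, 12.9 and 17.1 Mb. Relative to WT, the Shh-/-;Gli3-/- list thus covered 1.66 times the length, and the Shh-/- list 1.25 times, and these ratios are the background for every length below. Read depth is not recorded in the lists. Promoters of the 8 forelimb mesenchyme genes checked (marker list) all held a peak in each list, and promoters of the 2 hindlimb, 5 limb ectoderm and 6 neural genes held none. For the other marker lists, a promoter peak was present for 1 of 4 blood genes in Shh-/-, and for 1 of 3 muscle precursor and 1 of 4 endothelial genes in Shh-/-;Gli3-/-. Counted by any peak in the gene span plus 2 kb on each side, blood genes numbered 0, 3 and 2 of 4 in WT, Shh-/- and Shh-/-;Gli3-/-, muscle precursor genes 0, 2 and 2 of 3, endothelial genes 2, 2 and 2 of 4, limb ectoderm genes 0, 1 and 0 of 5, hindlimb genes 1, 1 and 1 of 2, and neural genes 0 of 6 in each list. The part of these cells in the differences below was not tested. In whole limb buds, fewer cells with the mark and less mark per cell cannot be told apart.

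Apart from isolated peaks described below, the genes with H3K27ac peaks formed an unbroken series of neighbours in each cluster. HoxB, HoxC and HoxD also held genes without any peak, whereas HoxA did not. A gene was counted as acetylated if its span plus 2 kb on each side held at least 1 peak. By that count, 19 of the 29 genes had a peak in WT (background 50.6% of all protein-coding genes), 20 in Shh-/- (background 54.5%) and 20 in Shh-/-;Gli3-/- (background 52.7%). The genes without a peak in any of the 3 lists were Hoxb1, Hoxb13, Hoxc8, Hoxc10, Hoxc11, Hoxc12, Hoxc13 and Hoxd1. All 6 HoxA members, the run from Hoxb8 to Hoxb2, the run from Hoxc6 to Hoxc4, and Hoxd8, Hoxd4 and Hoxd3 had peaks in all 3 lists.

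**Figure D1:**
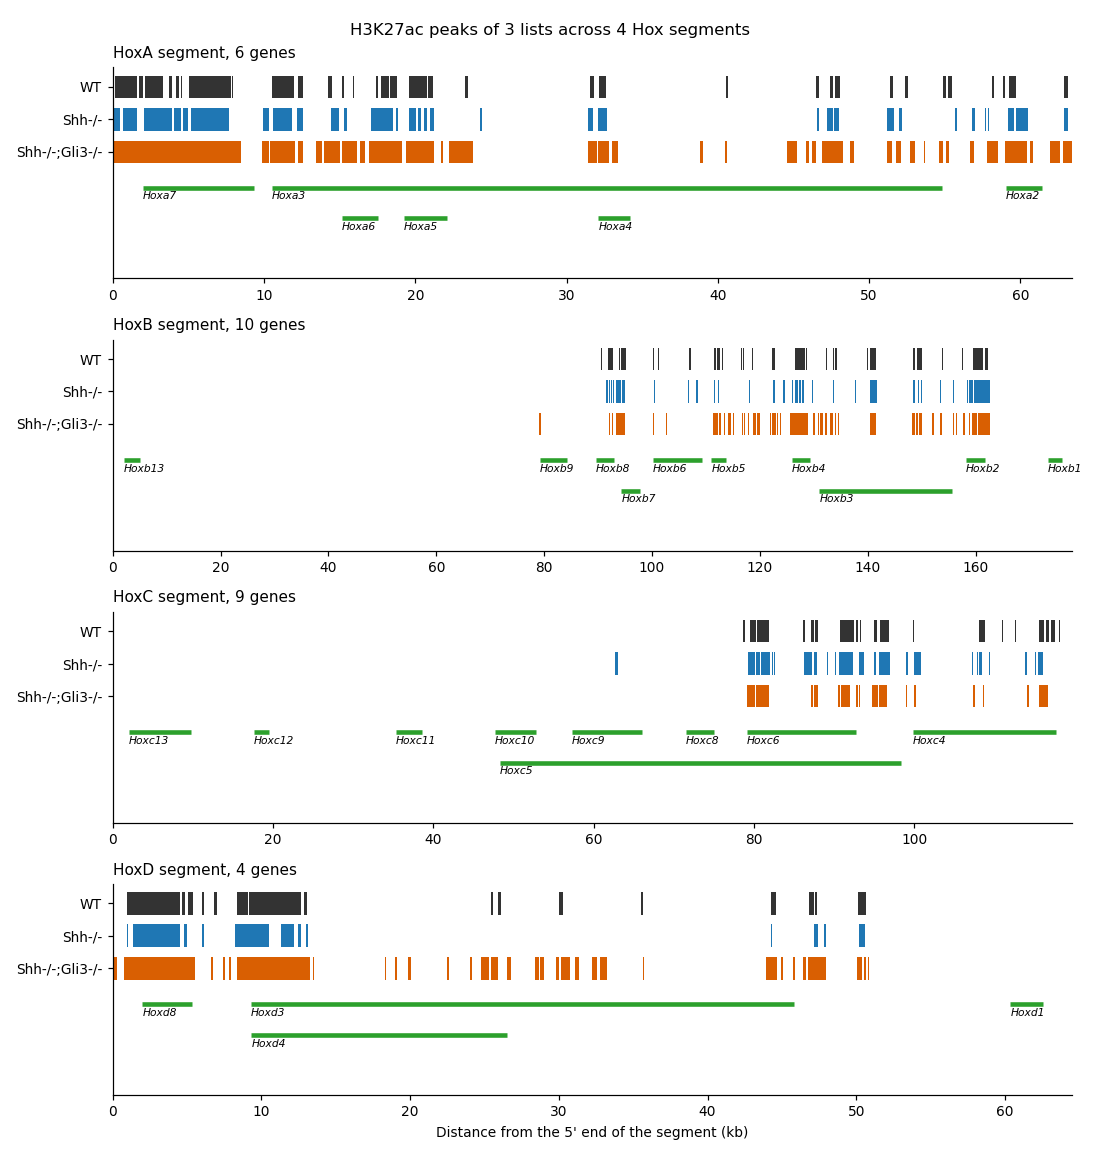
Peaks of the 3 lists (rows) in the 4 Hox segments, drawn to scale by distance in kb from the 5′ end of each segment, with the gene spans in green below. Peaks were spread over the HoxA segment from end to end, began 90.6 kb into the HoxB segment in WT, and left the Hoxb1 and Hoxd1 ends without any peak.

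The sequences at the ends of these acetylated runs are shown because they mark where the WT peaks stopped with all peaks counted. The first 2 are the outermost WT peaks of the HoxB run at its 3′ end, at chr11:96354750-96354849, and of the HoxD run at its 3′ end, at chr2:74752950-74753249 (both mm10, plus strand). Capitals mark matches, on either strand, to the GLI consensus GACCACCCA or its shorter form GACCACC, to the HOX-PBX motif TGATTNAT, or to TTTAT, a motif of posterior HOX proteins.
HoxB 3′ border peak: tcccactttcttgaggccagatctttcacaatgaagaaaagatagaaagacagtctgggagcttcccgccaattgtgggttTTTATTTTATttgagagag
HoxD 3′ border peak: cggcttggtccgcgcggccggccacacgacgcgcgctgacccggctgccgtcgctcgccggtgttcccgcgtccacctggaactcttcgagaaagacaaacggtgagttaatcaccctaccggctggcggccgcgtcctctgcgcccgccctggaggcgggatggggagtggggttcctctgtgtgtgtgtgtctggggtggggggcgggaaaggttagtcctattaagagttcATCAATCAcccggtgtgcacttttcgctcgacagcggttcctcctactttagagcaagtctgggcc
The HoxB peak lay downstream of Hoxb2 in no annotated gene. It was a weak call, with a log2 fold over input of 2.14 and a deposited false discovery rate (FDR) of 0.298. At an FDR below 0.05 the WT run ended with another peak, at 96354599. The HoxD peak lay over the noncoding genes Haglr and Gm14424 between Hoxd3 and Hoxd1. It was rich in CG dinucleotides, with 30 in 300 bases, against 1 in the 100 bases of the HoxB peak.

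The promoters below, each the 250 bases before the RefSeq start (GRCm38.p6), belong to genes next to these borders, with Hoxd4 added after its values were seen. The acetylated run of HoxB ended within Hoxb8, with its promoter just outside, Hoxb1 and Hoxd1 lie beyond the last peaks, and Hoxd4 lies in the interior of HoxD described below. The same motifs are in capitals.
Hoxb8 promoter, chr11:96281655-96281904, plus strand: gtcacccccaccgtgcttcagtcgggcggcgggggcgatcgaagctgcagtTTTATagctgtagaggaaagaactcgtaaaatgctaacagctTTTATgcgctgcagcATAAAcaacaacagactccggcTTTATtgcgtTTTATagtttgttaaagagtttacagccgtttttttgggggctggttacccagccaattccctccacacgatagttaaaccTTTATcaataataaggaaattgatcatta
Hoxb1 promoter, chr11:96365508-96365757, plus strand: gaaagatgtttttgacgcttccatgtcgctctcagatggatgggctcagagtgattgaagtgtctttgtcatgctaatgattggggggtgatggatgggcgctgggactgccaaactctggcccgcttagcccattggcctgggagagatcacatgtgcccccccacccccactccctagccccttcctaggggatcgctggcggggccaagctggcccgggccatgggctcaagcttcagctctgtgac
Hoxd1 promoter, chr2:74762730-74762979, plus strand: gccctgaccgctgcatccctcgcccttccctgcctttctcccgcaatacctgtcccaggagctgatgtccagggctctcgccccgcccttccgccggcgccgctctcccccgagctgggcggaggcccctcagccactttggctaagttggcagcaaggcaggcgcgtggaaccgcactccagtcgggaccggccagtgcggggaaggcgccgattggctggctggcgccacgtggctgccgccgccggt
Hoxd4 promoter, chr2:74721728-74721977, plus strand: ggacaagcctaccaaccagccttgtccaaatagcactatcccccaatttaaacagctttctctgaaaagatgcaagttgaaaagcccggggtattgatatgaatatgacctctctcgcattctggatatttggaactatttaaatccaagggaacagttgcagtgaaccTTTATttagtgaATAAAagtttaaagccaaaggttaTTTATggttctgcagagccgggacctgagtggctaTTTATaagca
The Hoxb8 and Hoxd4 promoters carried 6 and 4 TTTAT matches in these 250 bases, and the Hoxb1 and Hoxd1 promoters carried no match to any of the 4 motifs. CG dinucleotides numbered 12, 3, 7 and 24 in Hoxb8, Hoxd4, Hoxb1 and Hoxd1.

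Of the 29 genes, 13 had an entry in the RefSeq promoter table, whose entries run from 250 bases before to 50 after the start. None of these 13 held GACCACCCA, which 0.253% of all 32851 promoters held, and none held the shorter GACCACC (2.80% of all promoters). TGATTNAT was found in 1 of 13, in Hoxa2 (3.22% of all promoters), and TTTAT in 5 of 13 (40%). The median count of CG dinucleotides was 13 in the 13 promoters and 7 in all promoters, with 4 (Hoxd4) to 29 (Hoxa5 and Hoxd1) among the 13. A match is a description of the letters, and binding was not measured.

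With all peaks counted, the ends of the acetylated runs of HoxB and HoxD lay at nearly the same place in the 3 lists. At the 5′ end of the HoxB run, within Hoxb8, the edge was at 96282900 in WT, 96283750 in Shh-/- and 96284300 in Shh-/-;Gli3-/-, a range of 1400 bp on chromosome 11. At the 3′ end of the HoxB run, between Hoxb2 and Hoxb1, the edges lay at 96354849, 96354999 and 96355049 in the same order, a range of 200 bp. At the 3′ end of the HoxD run, between Hoxd3 and Hoxd1, they lay at 74753249, 74753199 and 74753499 on chromosome 2, a range of 300 bp. The HoxD peaks were not continuous up to this end in any list. The widest interior stretch without a peak was 12.3 kb in WT, 31.1 kb in Shh-/- (described below) and 8.20 kb in Shh-/-;Gli3-/-. All 3 ranges are short beside the 12.8 kb that separated an isolated HoxB peak, described next, from its run. At an FDR below 0.05 the ranges were 550, 450 and 250 bp in the same order. Edges were not located with lists cut to equal covered length, which kept 9365 Shh-/-;Gli3-/- peaks, but the 5′ end of HoxB did not stay in place there. The best-ranked Shh-/-;Gli3-/- peaks of the Hoxb8, Hoxb7, Hoxb6 and Hoxb5 windows ranked 13793, 13793, 16260 and 10836. These 4 windows thus held none in this list at that setting. Between Hoxb5 and Hoxb4, 1.27 kb was still covered in it. The WT list was kept whole at that setting, so its HoxB run still began within Hoxb8.

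An isolated peak lay beyond an acetylated run in 1 list each at Hoxc9 and Hoxb9. In Shh-/-, a peak of 350 bp at chr15:102981800-102982149 lay within Hoxc9, with a log2 fold over input of 2.46 and a deposited FDR of 0.101. In Shh-/-;Gli3-/-, a peak of 300 bp at chr11:96271450-96271749 lay over the start of Hoxb9, 12.8 kb from the run, with a log2 fold of 2.80 and an FDR of 0.00118. The Hoxc9 peak did not pass an FDR below 0.05 and ranked 26352 of 32085 in its list, so it was absent when the lists were cut to that FDR or to equal numbers of peaks. The Hoxb9 peak remained under both, but it ranked 15076 in its list and was absent at equal covered length, where 9365 peaks were kept.

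Beyond the borders the clusters were empty of peaks over long spans. From Hoxc13 to Hoxc8, 73.0 kb that hold 6 Hox genes, no base was covered in WT or in Shh-/-;Gli3-/-, and 0.35 kb was covered in Shh-/-. From Hoxb13 to Hoxb9, 82.3 kb, no base was covered in WT or Shh-/- and 0.300 kb was covered in Shh-/-;Gli3-/-. Hoxc10 and Hoxc11, genes best known for the hindlimb and the caudal axis, and Hoxb13, a gene of the tail end of the axis, were inside these spans. The nearest protein-coding genes outside the clusters (Skap2 and Evx1, Ttll6 and Skap1, Calcoco1 and Smug1, Evx2 and Mtx2) had at most 0.900 kb covered, and Evx1, Ttll6 and Evx2 had no peak in any list.

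Among paralog groups, which number the genes that descend from the same ancestral gene, coverage lay in groups 2 to 8, with short peaks in group 9. Groups 1, 10, 11, 12 and 13 had no covered base in any list, and group 9 (Hoxb9 and Hoxc9) had 0, 0.35 and 0.300 kb in WT, Shh-/- and Shh-/-;Gli3-/-. Group 7 (Hoxa7 and Hoxb7) had the highest covered share, at 44.9% of its windows in WT, 50.6% in Shh-/- and 62.2% in Shh-/-;Gli3-/-. Group 2 (Hoxa2 and Hoxb2) differed most between lists in percentage points, with 26.5%, 40.6% and 55.6%. Group 8 differed least among the groups covered in all lists, with 29.3%, 27.4% and 32.7%, although its members were unlike each other: Hoxd8 and Hoxb8 were covered and Hoxc8 was not.

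The genes with peaks were covered densely. The median covered share of a gene window was 13.2% in WT, 12.8% in Shh-/- and 25.2% in Shh-/-;Gli3-/- over the 29 genes, those without a peak included. For all protein-coding genes with a peak the medians were 2.21%, 2.55% and 2.94%. In the 3 lists, 18, 17 and 18 of the 29 genes stood above the 90th percentile of all protein-coding genes, those without a peak included. A peak of a given width takes a larger share of a short window, and genes were not matched for length. The windows of 21 of the 29 genes overlapped that of another member, so neighbouring genes share peaks. The 29 windows held 99 different peaks in WT, 99 in Shh-/- and 114 in Shh-/-;Gli3-/-.

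**Figure D2:**
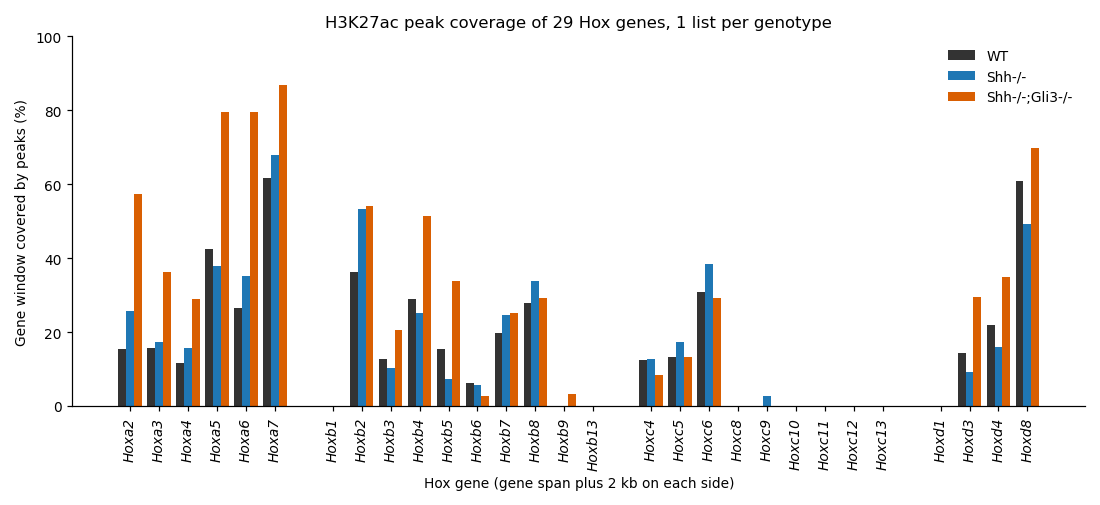
Share of each gene window (gene span plus 2 kb on each side) covered by peaks, in percent, for the 29 genes by cluster, with 1 bar per list (WT, Shh-/-, Shh-/-;Gli3-/-) and no error bars because there is 1 list per genotype. Hoxa7 and Hoxd8 stood highest in WT, at 61.7% and 60.8%, and the Shh-/-;Gli3-/- bars were the tallest for all 6 HoxA members.

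HoxA was the most densely covered of the 4 segments, a segment being the stretch from the first to the last member window of a cluster. Of its 63.4 kb, peaks covered 14.8 kb (23.3%) in WT, 16.8 (26.5%) in Shh-/- and 29.7 (46.9%) in Shh-/-;Gli3-/-. The Shh-/-;Gli3-/- to WT ratio of 2.01 stood above the whole-list ratio of 1.66, and the Shh-/- to WT ratio of 1.14 stood below 1.25. The number of peaks hardly differed, at 36, 32 and 34, so the added length in Shh-/-;Gli3-/- came with wider peaks. With lists cut to equal covered length, the Shh-/-;Gli3-/- to WT ratio was 1.21.

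Coverage in HoxA was denser from Hoxa5 to Hoxa7 than from Hoxa2 to Hoxa4 in all 3 lists. From Hoxa5 to Hoxa7 it was 46.5% in WT, 53.2% in Shh-/- and 78.9% in Shh-/-;Gli3-/-, and from Hoxa2 to Hoxa4 it was 9.89%, 13.3% and 28.6%. Hoxa7, next to the 5′ genes, had 61.7%, 67.9% and 86.8% of its window covered. Its strongest peak in Shh-/-;Gli3-/-, at chr6:52215400-52226199, was 10800 bp wide with a log2 fold of 5.59, and ran from Hoxa7 into Hoxa9. In WT and Shh-/- the widest peaks touching the HoxA segment were 2450 and 2700 bp.

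Peaks less than 2 kb apart were then joined into domains. The widest domain that touched the HoxA segment or its 20 kb flanks was 19.4 kb in WT, 29.5 in Shh-/- and 47.0 in Shh-/-;Gli3-/-. In Shh-/-;Gli3-/- it reached Hoxa5, whereas in WT and Shh-/- it ended within the Hoxa7 window. With a joining gap of 1 kb the 3 values were 19.4, 20.1 and 20.1 kb, and with 5 kb they were 45.3, 46.2 and 47.0 kb, so the lists differed far less at those gaps. The widest domains in WT, Shh-/- and Shh-/-;Gli3-/- were 5.05, 7.50 and 23.4 kb in HoxB, 6.55, 14.6 and 6.10 kb in HoxC and 18.6, 13.6 and 34.0 kb in HoxD. In HoxB the order also rested on the gap, with 3.10, 4.35 and 5.15 kb at 1 kb and 27.5, 23.8 and 23.4 kb at 5 kb, where Shh-/-;Gli3-/- was no longer the widest. In HoxD they lay over the 5′ genes in WT and Shh-/-, and in Shh-/-;Gli3-/- the domain reached past Hoxd8 to the upstream start of Hoxd3 and Hoxd4. The segment of the 4 Hoxa genes of the 5′ side, Hoxa9, Hoxa10, Hoxa11 and Hoxa13, was covered over 43.6%, 45.2% and 56.6%. Hoxa13 itself had no peak in any list.

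Among the single HoxA genes, Hoxa2, a regulator of hindbrain and branchial arch identity, had 0.983 kb covered in WT, 1.65 in Shh-/- and 3.68 in Shh-/-;Gli3-/-. The latter was 1.85 above WT on the log2 scale (50 bp added to both lengths). Hoxa6 had 1.71, 2.26 and 5.11 kb, a log2 ratio of 1.55 for Shh-/-;Gli3-/- over WT. Its promoter window, from 2 kb before to 1 kb after the start, was covered over 18.3%, 23.3% and 80.9%. Hoxa4 had 0.7, 0.95 and 1.75 kb, the same order of the lists. Hoxa5, which patterns the shoulder and the trachea, had 2.90, 2.59 and 5.44 kb, the shortest in Shh-/-. The Hoxa3 span of 44.3 kb in the annotation runs across Hoxa4, Hoxa5 and Hoxa6, so its 7.60, 8.35 and 17.5 kb repeat their peaks. A stretch between Hoxa4 and Hoxa5 stayed without a peak in every list, over 8.05 kb in WT, 7.0 in Shh-/- and 7.60 in Shh-/-;Gli3-/-.

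HoxB was covered over 13.3 kb in WT, 12.9 in Shh-/- and 21.1 in Shh-/-;Gli3-/-, which is 7.47%, 7.25% and 11.8% of its 178 kb. The Shh-/-;Gli3-/- to WT ratio was 1.58, close to the whole-list ratio of 1.66, and the Shh-/- to WT ratio was 0.970. At equal covered length the direction turned for Shh-/-;Gli3-/-, with a ratio to WT of 0.628. Within the acetylated run, from Hoxb8 to Hoxb2, coverage was 17.5%, 16.5% and 27.3%. The number of peaks in the segment was 31, 37 and 45.

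The lists differed in HoxB around Hoxb5 and Hoxb4. Hoxb5 had 1.05 kb covered in WT, 0.5 in Shh-/- and 2.30 in Shh-/-;Gli3-/-, log2 ratios to WT of -1.0 and 1.10. In the 12.1 kb between Hoxb5 and Hoxb4, 5 peaks in WT covered 1.05 kb, 4 peaks in Shh-/- covered 0.850 kb and 14 peaks in Shh-/-;Gli3-/- covered 4.12 kb. Of those peaks, 1, 3 and 11 had an FDR below 0.05, and at equal covered length the stretch held 1.05, 0 and 1.27 kb. The strongest of them outside every gene window lay in no annotated gene and overlapped between WT (chr11:96314600-96315149, log2 fold 4.05) and Shh-/-;Gli3-/- (chr11:96314500-96315349, log2 fold 4.35). The Shh-/- list had 2 short peaks at the same place, with log2 folds of 2.62 and 2.36.

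Hoxb4 itself was covered by different peak shapes. In WT, 1 peak of 1850 bp carried most of its 2.13 kb, in Shh-/- 8 peaks of at most 350 bp made up 1.85 kb, and in Shh-/-;Gli3-/- a peak of 3300 bp lay within its 3.79 kb. In contrast, the strongest Hoxb3 peak lay at nearly the same place in the 3 lists, at chr11:96332650-96333799 in WT, chr11:96332700-96333999 in Shh-/- and chr11:96332700-96333599 in Shh-/-;Gli3-/-, with log2 folds of 4.27, 4.62 and 4.33. Hoxb2, at the 3′ end of the run, had 2.70 kb in WT, 4.0 in Shh-/- and 4.05 in Shh-/-;Gli3-/-.

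Hoxb6 had the lowest covered share of its window inside the HoxB run in each list, although Hoxb5 had a shorter covered length in Shh-/-. It had 0.800 kb in WT, 0.750 in Shh-/- and 0.35 in Shh-/-;Gli3-/-, or 6.11%, 5.73% and 2.67% of its window, with a log2 ratio of -1.09 for Shh-/-;Gli3-/- over WT. Its neighbours Hoxb7 (1.48, 1.85 and 1.90 kb) and Hoxb8 (2.07, 2.50 and 2.17 kb) differed little between lists. The peaks in the Hoxb8 window lay over the gene body and past its 3′ end. The promoter window of Hoxb8, part of whose sequence is given above, had 200 bp covered in WT and none in either mutant. Those 200 bp were 1 WT peak with a log2 fold of 2.44 and an FDR of 0.0998, so it did not pass an FDR below 0.05.

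HoxC was, with all peaks counted, the only segment covered over a shorter length in Shh-/-;Gli3-/- than in both other lists (with lists of equal covered length, HoxB was as well). Of its 119.8 kb, 9.70 kb (8.10%) was covered in WT, 11.6 (9.65%) in Shh-/- and 8.65 (7.22%) in Shh-/-;Gli3-/-, by 20, 24 and 17 peaks. The Shh-/-;Gli3-/- to WT ratio of 0.892 stood below the whole-list ratio of 1.66. It stayed below 1 when peaks were kept at an FDR below 0.05 (0.898), cut to equal numbers of peaks (0.840) or cut to equal covered length (0.608).

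Within the HoxC run, Hoxc6, a gene expressed at forelimb levels, had 5.45 kb covered in WT, 6.75 in Shh-/- and 5.13 in Shh-/-;Gli3-/-. Hoxc4 had 2.70, 2.80 and 1.85 kb. The Hoxc5 span of 50 kb in the annotation reaches from Hoxc10 over Hoxc9 and Hoxc8 to Hoxc6, so its 7.15, 9.33 and 7.15 kb include the Hoxc6 peaks, and its promoter window was covered over 25.5%, 30.5% and 40.5%. Hoxc4 was 0.53 lower on the log2 scale in Shh-/-;Gli3-/- than in WT (log2 ratio -0.53). Over the gene span plus 2 kb on each side, none of these 3 genes passed a 2-fold difference between any of the lists. The promoter windows of Hoxc4 differed more, with 12.5% covered in WT, 33.9% in Shh-/- and 19.1% in Shh-/-;Gli3-/-.

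HoxD was covered over a shorter length in Shh-/- than in WT, while the longer cover in Shh-/-;Gli3-/- was close to the ratio of the whole lists. Of its 64.5 kb, 10.8 kb (16.7%) was covered in WT, 7.85 (12.2%) in Shh-/- and 17.6 (27.4%) in Shh-/-;Gli3-/-, by 18, 12 and 31 peaks. The Shh-/- to WT ratio was 0.727, against a whole-list ratio of 1.25. It stayed below 1 at an FDR below 0.05 (0.758), at equal numbers of peaks (0.685) and at equal covered length (0.606). The Shh-/-;Gli3-/- to WT ratio was 1.63, beside 1.66 for the whole lists, and 1.12 at equal covered length. The Shh-/-;Gli3-/- to Shh-/- ratio was 2.25, against a whole-list ratio of 1.32, and stood between 1.85 and 2.29 under the same alternatives.

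Shh-/-;Gli3-/- exceeded WT more in the interior of the HoxD segment than at Hoxd8. The room to rise was unequal, since WT peaks already covered most of the Hoxd8 window and 2.41% of the interior span below. Hoxd8, next to the 5′ genes, had 4.45 kb in WT, 3.6 in Shh-/- and 5.10 in Shh-/-;Gli3-/-, or 60.8%, 49.2% and 69.7% of its window. The peak over the shared upstream start of the Hoxd3 and Hoxd4 models was also present in every list, 3100 bp wide in WT, 2250 bp in Shh-/- and 4900 bp in Shh-/-;Gli3-/-. Between this peak and the region near the 3′ end of Hoxd3, the Shh-/- list had no peak over 31.1 kb (chr2:74715750-74746849). In that span, which was bounded by the Shh-/- peaks and is given as a description, 4 WT peaks covered 0.750 kb and 19 Shh-/-;Gli3-/- peaks covered 4.90 kb. Of these, 1 in WT and 14 in Shh-/-;Gli3-/- had an FDR below 0.05. With lists of equal covered length, the span held 0.750, 0 and 1.05 kb.

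The promoter windows of Hoxd4, a gene of the hindbrain and the cervical axis, fell inside that span. They had 25 bp covered in WT, none in Shh-/- and 1225 bp in Shh-/-;Gli3-/-. The Shh-/-;Gli3-/- peak nearest to the start whose promoter is printed above, at chr2:74721600-74721749, had a log2 fold of 2.07 and an FDR of 0.0902. Hoxd3 had 5.85 kb in WT, 3.75 in Shh-/- and 11.9 in Shh-/-;Gli3-/- over its 36.5 kb span, which contains that of Hoxd4. The segment of the 5 Hoxd genes of the 5′ side, Hoxd9 to Hoxd13, was covered over 32.9%, 27.3% and 61.7%, the same order of the lists. Hoxd12 and Hoxd13 had no peak in Shh-/-.

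**Figure D3:**
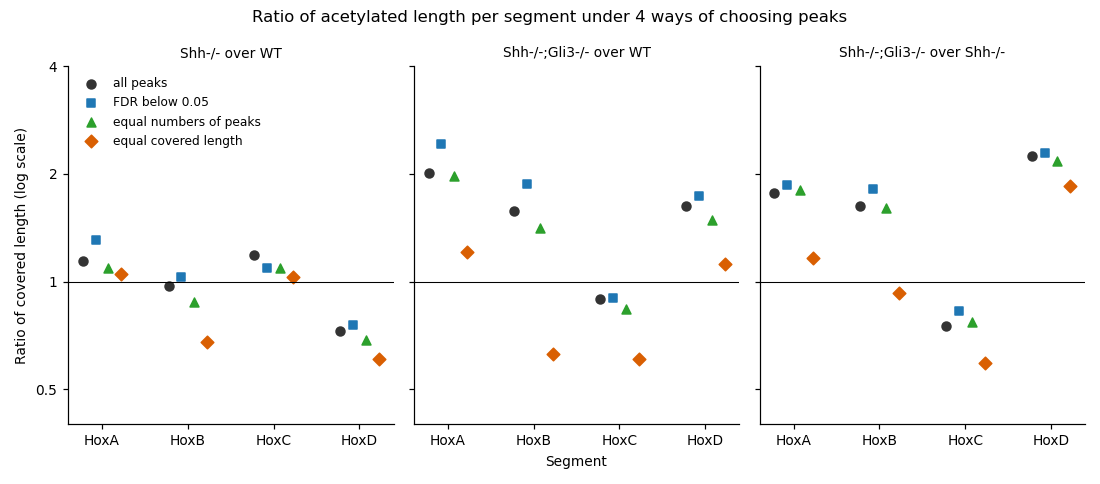
Ratio of covered length between lists for the 4 segments (log axis), with all peaks and with 3 ways of matching the lists (FDR below 0.05, equal numbers of peaks, equal covered length). The Shh-/- to WT ratio of HoxD and the Shh-/-;Gli3-/- to WT ratio of HoxC stayed below 1 in all 4, and that of HoxB went from 1.58 to 0.628 at equal covered length.

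Set against all genes, few members differed by 2-fold in Shh-/-, and more did in Shh-/-;Gli3-/-. For Shh-/- over WT, 1 of 20 members with a peak in either list was at least 2-fold higher (Hoxc9, background 22.1% of 12582 genes) and 1 was at least 2-fold lower (Hoxb5, background 6.93%). The median log2 ratio was 0.14 for the members and 0.25 for all genes. For Shh-/-;Gli3-/- over WT, 7 of 20 were at least 2-fold higher (Hoxa2, Hoxa3, Hoxa4, Hoxa6, Hoxb5, Hoxb9 and Hoxd3, background 23.3% of 12220 genes) and 1 was at least 2-fold lower (Hoxb6, background 6.56%), with medians of 0.68 and 0.38. For Shh-/-;Gli3-/- over Shh-/-, 9 of 21 were higher (Hoxa2, Hoxa3, Hoxa5, Hoxa6, Hoxb4, Hoxb5, Hoxb9, Hoxd3 and Hoxd4, background 13.5% of 12666 genes) and 2, Hoxb6 and Hoxc9, were lower (background 12.4%), with medians of 0.85 and 0.14. Near the 2-fold threshold for Shh-/-;Gli3-/- over WT, Hoxd3 stood just inside with a log2 ratio of 1.02 and Hoxa5 just outside with 0.90. These counts rest on windows that overlap and on lists of unequal length. At equal covered length, none of the members was 2-fold higher in Shh-/-;Gli3-/- than in WT (background 4.83%) and 6 were lower (background 33.7%). For Shh-/- over WT the counts were then 0 higher (background 11.9%) and 3 lower (17.0%), and for Shh-/-;Gli3-/- over Shh-/- they were 2 higher (6.52%) and 5 lower (29.6%).

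**Figure D4:**
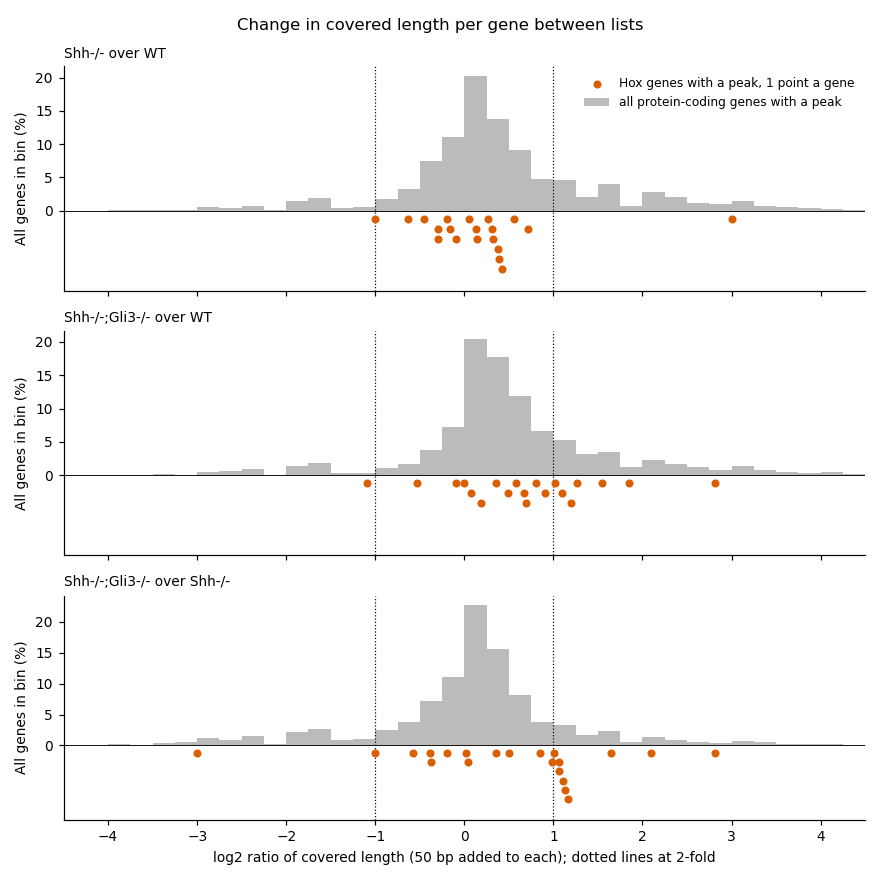
Distribution of the log2 ratio of covered length per gene between lists, for all protein-coding genes with a peak in either list (grey, percent of genes per bin) and the Hox genes (points below the axis, stacked for display). Most Hox genes lay between the dotted 2-fold lines for Shh-/- over WT, and 7 lay to the right of them for Shh-/-;Gli3-/- over WT.

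Most WT peaks of the Hox segments recurred in the mutant lists. Of the 105 WT peaks in the 4 segments, 64 (61.0%, 95% Wilson interval 51.4 to 69.7) overlapped a Shh-/- peak by at least 1 bp and 80 (76.2%, 67.2 to 83.3) overlapped a Shh-/-;Gli3-/- peak. Over the whole WT list the shares were 63.4% and 70.8%. Counted from the mutant lists, 66.7% of Shh-/- and 44.1% of Shh-/-;Gli3-/- peaks in the segments lay on a WT peak, and 48.4% and 43.3% did over the whole lists. In HoxD, 11 of 12 Shh-/- peaks lay on a WT peak, whereas 9 of 31 Shh-/-;Gli3-/- peaks did. In HoxC, 12 of 17 Shh-/-;Gli3-/- peaks lay on a WT peak. The intervals cover counting error only.

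HOX proteins bind DNA with partners of the PBX and MEIS families, and the genes for these were covered beside the Hox genes. A promoter peak was present for 6 of 9 partner genes in WT and for 7 of 9 in each mutant, with none for Pbx4 and Meis3. Meis1, a marker of the proximal limb, had 10.7 kb in WT, 10.6 in Shh-/- and 16.2 in Shh-/-;Gli3-/-, and Meis2 had 7.94, 7.89 and 11.0 kb. Among 11 known upstream regulators of Hox genes, 8 had a promoter peak in every list, all of them Trithorax and Polycomb genes (Kmt2a, Kmt2b, Ezh2, Eed, Suz12, Rnf2, Bmi1 and Cbx2). Cdx1, Cdx2 and Cdx4, which drive Hox genes in the posterior trunk, had no promoter peak. The share of all genes with a promoter peak was not computed. By any peak in the gene span plus 2 kb on each side, 7 of 9 partner genes counted in each list. Regulators then numbered 8, 9 and 8 of 11 in WT, Shh-/- and Shh-/-;Gli3-/-. The background was 50.6%, 54.5% and 52.7% of all protein-coding genes, not matched for length.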

How the data were processed

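H3K27ac MicroChIP-seq of WT, Shh-/- and Shh-/-;Gli3-/- forelimb buds was used as 3 deposited peak lists, 1 per genotype. Groups follow the sample titles, since the labels' genotype field says wild type throughout. The authors aligned reads to mm10 with Bowtie2 2.2.5, per the submitters' processing notes, and called peaks with CisGenome, with 2 biological replicates, per the study's methods. Each list is filed under sample 1 of its genotype in the labels, and whether it holds that sample alone or both is not given in the sources used here, and read depth is not in the lists. The deposited columns hold peak positions in steps of 50 bp, the score of the peak, its log2 fold over input, its −log10 p-value and its FDR (a q-value), all computed by the authors within each genotype, so that folds printed for several lists are each list's own values and no difference between them was computed.

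Covered bases were counted once per list over gene span plus or minus 2 kb, cluster segments, domains (peaks less than 2 kb apart) and promoter windows (2 kb before to 1 kb after a start), with Python 3.11.15, numpy 2.4.6, pandas 2.3.3 and pysam 0.24.0. Gene models came from GENCODE M21 and promoter sequences from RefSeq (GRCm38.p6), the same assembly as mm10. Log2 ratios of covered length have 50 bp added. The counting was tested on simulated intervals. A run of peaks ended at the outermost peak with another peak of its list within 5 kb. Wider stretches without a peak inside a run did not end it. No test was made, since the lists hold no values per sample. All members are named. Other genes named are those that flank the clusters, the 5′ Hoxa and Hoxd genes, noncoding genes under peaks outside every member window, and lists of HOX partners and Hox regulators. The members and lists were chosen with earlier results of these data known. Alternatives were an FDR below 0.05, equal numbers of peaks, equal covered length, other windows, a minimum of 200 bp covered and other joining gaps. The 5′ border of the HoxC run is not reported here.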

Additional observations from a re-analysis of the deposited data

How the results depend on the processing

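The count of members with a peak stayed within 1.5 times of the reported one under an FDR below 0.05, equal numbers of peaks, equal covered length, at least 200 bp covered, 5 kb flanks and promoter windows. The largest difference was in Shh-/-;Gli3-/- at equal covered length, with 15 members against 20 with all peaks. WT and Shh-/- then had 19 and 18. Counts of members past 2-fold were less stable. For Shh-/- over WT they were 0 higher and 2 lower at equal numbers of peaks, 0 and 3 at equal covered length, 2 and 2 in promoter windows, and 0 lower with 5 kb flanks. For Shh-/-;Gli3-/- over WT they were 0 higher and 6 lower at equal covered length, 2 lower in promoter windows, and 0 lower at an FDR below 0.05 and with 5 kb flanks. For Shh-/-;Gli3-/- over Shh-/- they were 2 higher and 5 lower at equal covered length, 5 and 1 in promoter windows, 0 lower at an FDR below 0.05 and at equal numbers, and 1 lower with 5 kb flanks. At equal covered length, Shh-/-;Gli3-/- peaks covered 17.9 kb of HoxA and 8.35 kb of HoxB. Equal covered length keeps 9365 of the Shh-/-;Gli3-/- peaks, so fewer peaks were counted by construction.

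The widest domain of HoxB in WT was 3.35 kb at an FDR below 0.05, and in Shh-/-;Gli3-/- 11.8 kb at equal numbers of peaks. With a joining gap of 1 kb, the widest domain in Shh-/-;Gli3-/- was 20.1 kb in HoxA and 19.5 kb in HoxD, and those of WT, Shh-/- and Shh-/-;Gli3-/- were 3.10, 4.35 and 5.15 kb in HoxB and 3.15, 4.55 and 2.75 kb in HoxC. With 5 kb, WT and Shh-/- domains were 45.3 and 46.2 kb in HoxA and 27.5 and 23.8 kb in HoxB, those of WT and Shh-/-;Gli3-/- were 21.4 and 13.1 kb in HoxC, and those of the 3 lists were 33.3, 28.4 and 56.2 kb in HoxD. In HoxB the Shh-/-;Gli3-/- domain was therefore the widest at 2 kb and not at 5 kb (23.4 kb).

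No paired analysis was possible because values per replicate are not in the 3 lists. Leaving out 1 replicate could not be run for the same reason. With 1 list per genotype and unknown depth, the spread between embryos is not known for any value here, and genotype cannot be told apart from the library or embryo that gave each list.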
